A study of Homo sapiens with 2 samples.

Results

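The retinoid genes described here are 7 genes of the retinoic acid pathway, found by their gene symbols among the 13137 genes of a digital gene expression table from A549 cells. They comprise the retinoic acid receptors RARA, RARB and RARG, the retinoid X receptors RXRA and RXRB, the retinoic acid binding protein CRABP2 and the retinal reductase DHRS3. A549 is a human lung adenocarcinoma line. The cells carried, under the H1 promoter and a tetracycline operator, either an shRNA against SOX2 (H1TetO-shRNA-SOX2) or a scrambled shRNA (H1TetO-shRNA-Con). Cells of both kinds had been selected with puromycin as polyclonal populations, and both were given doxycycline for 4 days to induce the shRNA. No retinoid treatment is named for either. There was 1 library per condition, made from 4 µg of total RNA, and a single hairpin sequence was used against SOX2. The comparison asks which transcripts differ between cells with and without the induced SOX2 hairpin.

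Retinoic acid is made inside cells from retinol, which is first oxidised to retinal by retinol dehydrogenases and then to retinoic acid by aldehyde dehydrogenases of the ALDH1A group. It binds RAR proteins, which sit on DNA as heterodimers with RXR proteins. Without the ligand the pair recruits corepressors, and with the ligand it recruits coactivators and raises the transcription of its targets, among them RARB, CRABP2, DHRS3 and CYP26A1. RARB is widely studied in lung cancer, where its expression is often lost.

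The library of shRNA-Con held 2304184 tags on genes and the library labelled shRNA-SOX2 held 2093816. The value columns carry the abbreviations SC and S1, and SC was read as shRNA-Con and S1 as shRNA-SOX2. The labels do not spell this out, and the library labelled shRNA-SOX2 means here the column read as such. For the targeted gene, SOX2, 16 tags were counted in shRNA-Con against 23 in the library labelled shRNA-SOX2. The ratio was 1.58 (95% interval 0.800 to 3.20), so SOX2 transcripts were not shown to be lower in the column read as shRNA-SOX2. The tags measure transcripts, not SOX2 protein. Without replicates, the tags of a gene and those of all remaining genes were compared by Fisher's exact test, two-sided, adjusted over the 13137 genes, and a gene was called at an FDR of 0.001. This sets 1 library against the other rather than 1 condition against the other, and all intervals given here cover counting error only. By this rule 21.7% of all genes were called, 9.53% higher and 12.2% lower. All 7 retinoid genes had at least 20 tags in the libraries together, and among the 10045 such genes 28.0% were called, 12.2% higher and 15.8% lower. Lower genes made up 56.1% of the calls, 49.4% with edgeR's TMM factors and 66.6% when the libraries were scaled to clean tags, which are all tags that passed the sequencing filter. Epithelial keratins were abundant, with 7702 and 12729 tags of KRT8 and 10318 and 7887 of KRT18 in shRNA-Con and the library labelled shRNA-SOX2, while EPCAM had 8 and 4 tags. KRT7 was lower, with 3899 and 1606 tags, and KRT19 higher, with 35 and 127. The summed tags of the blood cell markers were 13 and 12, of the fibroblast markers 46 and 52 and of the endothelial markers 3 and 0, with 2 tags of PTPRC in each library, 11 and 10 of CD14, 3 and 0 of PECAM1, 44 and 43 of COL1A1, and 3 markers of each of these cell types not analysed here.

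RARB is both a receptor and a target of its own family, and the stretch of DNA that marks it as such is shown here because RARB is the member that was higher. Whether this stretch has a part in that difference was not tested. RefSeq lists 4 start sites for RARB. The window of 1 of them, 250 bases before to 50 after the start, lies at chr3:25428013-25428312 on the plus strand of GRCh38.p14. The capitals mark 2 hexamers of the kind bound by RAR, in the same orientation with 5 bases between them.

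RARB start window: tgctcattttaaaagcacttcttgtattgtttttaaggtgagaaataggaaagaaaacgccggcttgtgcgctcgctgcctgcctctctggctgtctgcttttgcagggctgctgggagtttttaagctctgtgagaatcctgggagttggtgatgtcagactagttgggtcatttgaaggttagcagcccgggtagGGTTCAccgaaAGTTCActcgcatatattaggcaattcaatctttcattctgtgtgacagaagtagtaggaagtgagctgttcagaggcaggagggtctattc

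The element reads GGTTCACCGAAAGTTCA, at chr3:25428210-25428226, and begins 53 bases before the start site. It was found by a search, on both strands, for 2 hexamers in direct repeat with 1, 2 or 5 bases between them, where a hexamer was AGGTCA, its variant AGTTCA, the further variant GGTTCA or lastly the variant GGGTCA. Repeats with 5 bases between them were present in 0.0883% of the 35116 windows in the RefSeq promoter set, those with 1 base in 0.131% and those with 2 bases in 0.0399%. The 7 genes have 16 such windows, 3 of them for RARA on chromosome 17, 3 for DHRS3 and 1 for CRABP2 on chromosome 1, 2 for RXRA on chromosome 9, 2 for RXRB on chromosome 6 and 1 for RARG on chromosome 12. The other 15 windows hold no such repeat. Elements outside these windows, or built from other hexamers, were not searched for. A single hexamer of this kind was present in 8 of the 16 windows, against 38.6% of all windows. The hexamer ACAATG, a core sequence bound by SOX proteins, was found on either strand in 10.8% of all windows and in 2 of the 16, another window of RARB and 1 of RXRA. The tag counts do not tell from which start site a transcript came.

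The receptors of retinoic acid moved in opposite directions. In the library labelled shRNA-SOX2, RARB was higher and RARA was lower, and no call was made for RARG. RARA (Entrez Gene ID 5914), the most widely expressed of the 3 RARs, gave 143 tags in shRNA-Con against 55 in the library labelled shRNA-SOX2. In counts per 1000000 gene tags (CPM) this was 62.1 (95% interval 52.3 to 73.1) and 26.3 (19.8 to 34.2). The level was 2.36-fold lower (95% interval 1.72 to 3.29), or -1.24 as log2 fold change, with an adjusted p of 1.26e-07 in Fisher's exact test. Fewer cells that express a gene and less of its RNA per cell cannot be told apart in such bulk libraries.

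RARB (Entrez Gene ID 5915) gave 53 tags in shRNA-Con against 148 in the library labelled shRNA-SOX2. Its level rose from 23.0 CPM (95% interval 17.2 to 30.1) to 70.7 (59.8 to 83.0). The ratio was 3.07 (95% interval 2.23 to 4.29), or 1.62 as log2 fold change, with an adjusted p of 1.51e-12 in Fisher's exact test. Among the genes with at least 20 tags, the fold change of RARB stood at percentile 96.5 and that of RARA at percentile 8.41. In the RefSeq annotation RARB and TOP2B, on opposite strands, overlap by 28 bases where they end, and whether the counting used strand is not given in the sources used here. TOP2B had 217 and 183 tags (log2 fold change -0.11, adjusted p = 0.629, Fisher's exact test). RARA overlaps 2 noncoding genes, RARA-AS1 among them, and RARB overlaps RARB-AS1 and other noncoding genes and pseudogenes, none of which were analysed here.

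RARG (Entrez Gene ID 5916), the RAR best known from skin, gave 14 tags in shRNA-Con against 21 in the library labelled shRNA-SOX2. The ratio of 1.65 had a 95% interval from 0.801 to 3.51 (adjusted p = 0.301, Fisher's exact test). The interval includes 1, so no difference was shown for RARG.

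**Figure D1:**
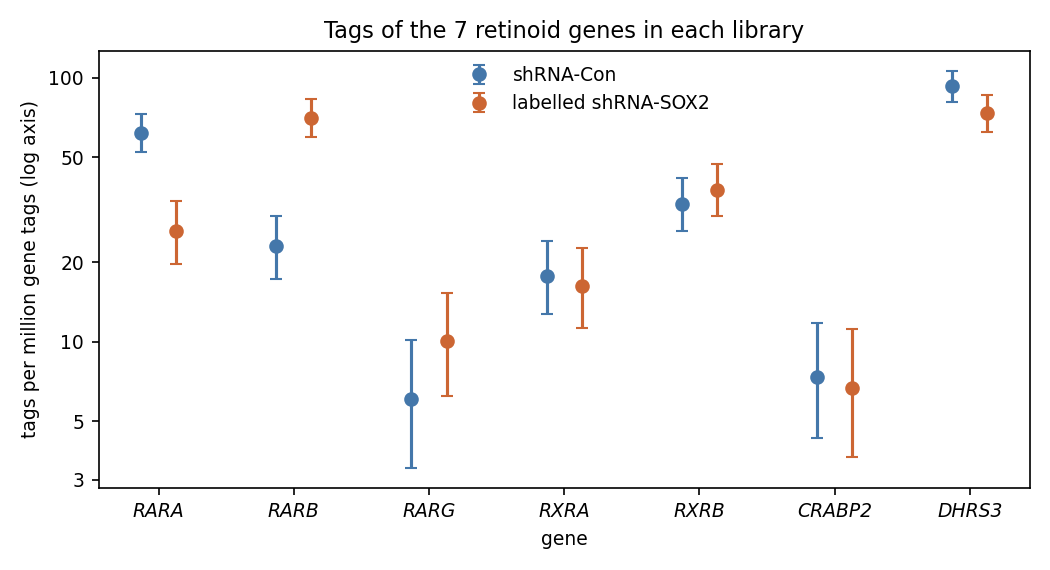
CPM (tags per 1000000 gene tags, log axis) of the 7 genes in shRNA-Con (blue) and the library labelled shRNA-SOX2 (orange), 1 library each, with exact 95% Poisson intervals for counting error. RARA (62.1 and 26.3) and RARB (23.0 and 70.7) were called at FDR 0.001, and the other 5 genes were not. Among all genes with at least 20 tags 28.0% were called.

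Together the 3 RAR genes gave 210 tags in shRNA-Con against 224 in the library labelled shRNA-SOX2, or 91.1 and 107 CPM. The ratio of these sums was 1.17 (95% interval 0.968 to 1.42), and it was 1.23 with TMM factors and 1.09 with clean tags. What differed was the make-up of the sum, which does not depend on how the libraries are scaled. RARA made up 68.1% of the RAR tags in shRNA-Con (95% Clopper-Pearson interval 61.3% to 74.3%) and 24.6% in the library labelled shRNA-SOX2 (19.1% to 30.7%). RARB made up 25.2% (19.5% to 31.7%) and 66.1% (59.5% to 72.2%). Thus there were 2.70 RARA tags for each RARB tag in shRNA-Con, and 2.69 RARB tags for each RARA tag in the library labelled shRNA-SOX2. RARG stayed the least abundant, with 6.67% (3.69% to 10.9%) and 9.38% (5.90% to 14.0%) of the RAR tags.

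**Figure D2:**
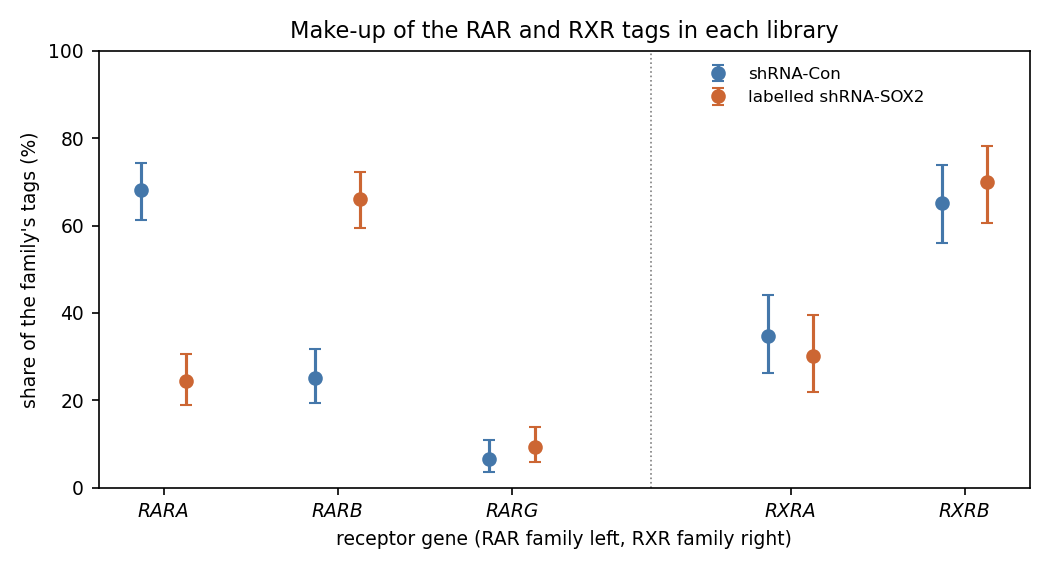
Share of the tags of the RAR family (left of the dotted line) and the RXR family (right) that each receptor gene held in shRNA-Con (blue) and the library labelled shRNA-SOX2 (orange), with exact 95% binomial intervals. RARA went from 68.1% to 24.6% and RARB from 25.2% to 66.1%, while the intervals of the RXR shares overlap between the libraries.

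The RXR genes encode the partners that every RAR needs to bind DNA, and neither was called. RXRA (Entrez Gene ID 6256) gave 41 tags in shRNA-Con against 34 in the library labelled shRNA-SOX2. The ratio was 0.913 with a 95% interval from 0.562 to 1.47 (adjusted p = 0.826, Fisher's exact test). RXRB (Entrez Gene ID 6257) had 77 and 79 tags, a ratio of 1.13 with an interval from 0.814 to 1.57 (adjusted p = 0.616, Fisher's exact test). The sum of these 2 was 118 and 113 tags, a ratio of 1.05 (0.807 to 1.38) that was 0.974 with clean tags. RXRB made up 65.3% (55.9% to 73.8%) of the RXR tags in shRNA-Con and 69.9% (60.6% to 78.2%) in the library labelled shRNA-SOX2. The order of the RXR genes was thus the same in the libraries, unlike that of RARA and RARB. RXRG was not analysed here.

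CRABP2 and DHRS3 are target genes that act on the ligand. CRABP2 (Entrez Gene ID 1382) carries retinoic acid from the cytosol to the RARs. It gave 17 tags in shRNA-Con against 14 in the library labelled shRNA-SOX2. The ratio was 0.906, with a 95% interval from 0.414 to 1.95 (adjusted p = 0.928, Fisher's exact test). This interval is wide and includes 1, so no difference was shown for CRABP2 either. DHRS3 (Entrez Gene ID 9249) reduces retinal back to retinol and so limits the synthesis of retinoic acid. It had 215 and 154 tags, or 93.3 (81.3 to 107) and 73.5 (62.4 to 86.1) CPM, with overlapping intervals. The ratio was 0.788 (95% interval 0.637 to 0.974), with an unadjusted p of 0.0250 and an adjusted p of 0.0638 in Fisher's exact test. DHRS3 was therefore not called, and its adjusted p was 0.158 with TMM factors and 0.00977 with clean tags.

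Of the 7 genes, 1 was called higher and 1 lower, which is 28.6% and close to the 28.0% of all genes with at least 20 tags. Their median log2 fold change was -0.13, against -0.10 over those 10045 genes. The share of calls was thus near that of the background, and the members past the threshold were RARA and RARB. Both calls held with TMM factors, the median ratio and clean tags. They held as well in edgeR's exact test when cultures were taken to differ with a coefficient of variation of 0.1, with adjusted p-values of 0.000600 for RARA and 3.34e-06 for RARB. With a coefficient of 0.2 neither was past the threshold (adjusted p = 0.0989 and 0.0189), and no replicate says which value applies.

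**Figure D3:**
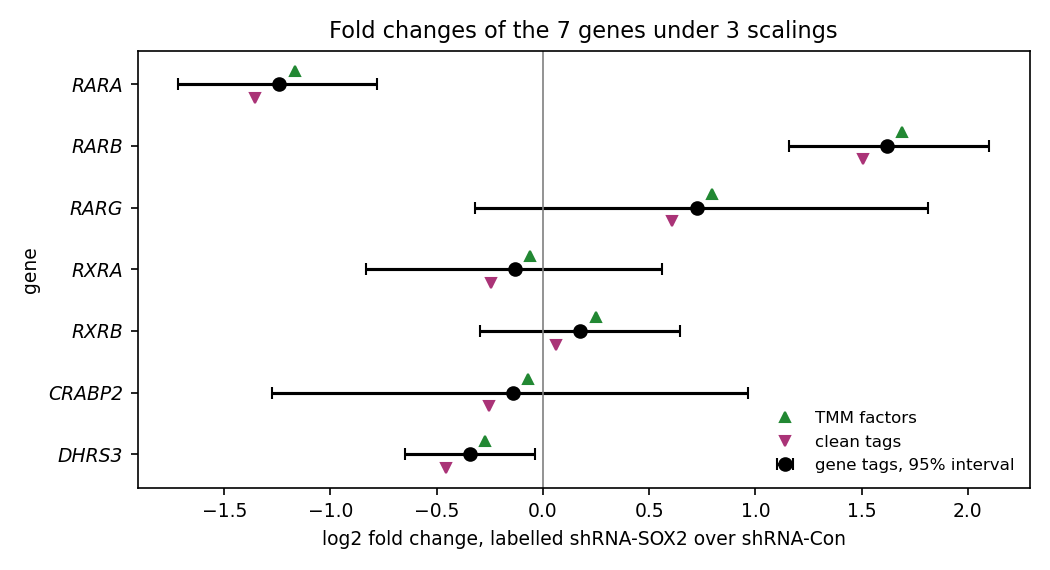
Log2 fold changes of the 7 genes between the library labelled shRNA-SOX2 and shRNA-Con (positive where higher in the former), scaled by gene tags (black points with 95% intervals for counting error), by TMM factors (green) and by clean tags (purple). RARA lies at -1.24 and RARB at 1.62 with intervals away from 0 under the main scaling, and the interval of DHRS3 ends just below 0.

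The order of the members by level also differed. Digital gene expression counts tags at a restriction site rather than along the whole transcript, so CPM were not divided by transcript length. In shRNA-Con the order was DHRS3, RARA, RXRB, RARB, RXRA, CRABP2 and RARG, from 93.3 down to 6.08 CPM. Neighbours with overlapping intervals were RXRB and RARB, RARB and RXRA, and CRABP2 and RARG. Overlap of intervals is not a test of order, and the order of neighbours was not tested. In the library labelled shRNA-SOX2 the order was DHRS3, RARB, RXRB, RARA, RXRA, RARG and CRABP2, from 73.5 down to 6.69 CPM. There the neighbours RARB and RXRB were the only pair of the 6 whose intervals did not overlap.

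**Figure D4:**
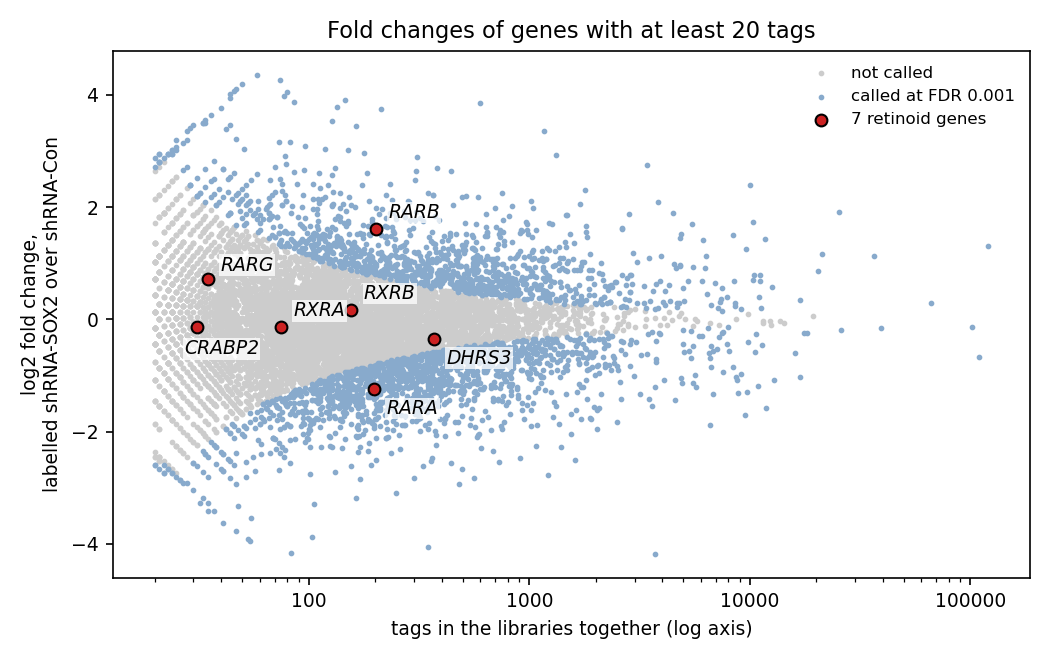
Log2 fold change against the tags in the libraries together (log axis) for the 10045 genes with at least 20 tags, with genes called at FDR 0.001 in blue and the 7 retinoid genes in red. RARB and RARA lie among the called genes at 201 and 198 tags, and the other 5 lie among the genes not called.

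The rest of the pathway was taken from 7 lists that hold 84 genes, members included, of which 13 were not analysed here. Of the 71 genes with values, 18 were called, 5 higher and 13 lower. With TMM factors 8 were higher and 12 lower, and with clean tags 5 were higher and 15 lower. The share called was 25.4%, beside 21.7% of all genes, and the median log2 fold change of the 50 genes with at least 20 tags was -0.17. Relative to gene tags, clean tags shift every log2 fold change by -0.11 and TMM factors by 0.07.

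The enzymes that make retinoic acid include the gene with the most tags of the pathway. ALDH1A1, which oxidises retinal to retinoic acid, rose from 7035 tags to 14268, or 3053 to 6814 CPM. The ratio was 2.23 (95% interval 2.17 to 2.30, log2 fold change 1.16), and it was called under every scaling and with an assumed coefficient of variation of 0.1. It was the 1 gene called among the 5 with values in its list, a share near the 21.7% of all genes. ALDH1A3 had 18 and 42 tags (log2 fold change 1.36, adjusted p = 0.00267, Fisher's exact test). The CYP26 enzymes, which break retinoic acid down, had few tags. CYP26B1 had 35 and 44 (adjusted p = 0.302, Fisher's exact test), and CYP26A1, the classical target gene of retinoic acid, had 6 and 3 (adjusted p = 0.639, Fisher's exact test). ALDH8A1 had 0 and 2 tags.

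Among the enzymes that interconvert retinol, retinal and carotenoids, 1 of 13 was called higher and 2 lower. This is 23.1% in all, near the 21.7% of all genes. RETSAT, a retinol saturase, rose from 100 tags to 163 (log2 fold change 0.84, adjusted p = 2.12e-05, Fisher's exact test). RDH10, the dehydrogenase that supplies retinal in the embryo, fell from 99 tags to 47 (log2 fold change -0.94, adjusted p = 0.000835, Fisher's exact test), and with TMM factors it was not called (adjusted p = 0.00264). AKR1B10, an aldo-keto reductase that reduces retinal, had 6039 and 4581 tags, a ratio of 0.835 (0.803 to 0.868). It has near-identical relatives, so its tags could have been split. RDH13 had 16 and 41 tags (log2 fold change 1.50, adjusted p = 0.00123, Fisher's exact test) and was called with TMM factors. DHRS9 and LRAT had 0 tags in shRNA-Con and 5 and 2 in the library labelled shRNA-SOX2, and SDR16C5 had 4 and 0. In edgeR's exact test with an assumed coefficient of variation of 0.1, 0 of the 13 enzymes were called, beside 1166 of all 13137 genes.

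Carriers of retinoids had 1 call among 7 genes, or 14.3%, beside 21.7% of all genes. FABP5, a fatty acid binding protein that also carries retinoic acid, fell from 86 tags to 34 (log2 fold change -1.20, adjusted p = 0.000121, Fisher's exact test). In edgeR's exact test with an assumed coefficient of variation of 0.1 it was not called (adjusted p = 0.00637). FABP5 has processed pseudogenes, which makes its tags less certain. STRA6, the cell surface receptor for retinol bound to its plasma carrier and also a retinoic acid target, had the most tags of the list, 244 and 217 (ratio 0.979, interval 0.811 to 1.18). TTR, which travels with the plasma carrier of retinol, had 0 and 11 (adjusted p = 0.00128, Fisher's exact test), called only with TMM factors among the 3 other scalings. RBP7 had 2 and 0 tags.

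Of the 14 coregulators, 5 were called lower and 0 higher, beside 12.2% of all genes and 15.8% of those with at least 20 tags called lower. NCOR1, a corepressor that RAR recruits without ligand, fell from 109 tags to 42 (log2 fold change -1.24, adjusted p = 5.62e-06, Fisher's exact test). TBL1XR1, a subunit of the corepressor complex, fell from 245 to 131 (-0.77, adjusted p = 4.67e-06, Fisher's exact test). MED1 and CREBBP act with the ligand. MED1, the Mediator subunit that binds nuclear receptors, fell from 193 tags to 61 (-1.52, adjusted p = 2.51e-13, Fisher's exact test), and CREBBP, a histone acetyltransferase, fell from 236 to 118 (-0.86, adjusted p = 5.46e-07). By Fisher's exact test, corepressors and coactivators were thus both among the lower genes. In edgeR's exact test with an assumed coefficient of variation of 0.1, 2 of the 14 were called, MED1 among them (adjusted p = 5.50e-06). That test called 1166 of all 13137 genes. NCOR1, TBL1XR1 and CREBBP then fell short of the threshold (adjusted p = 0.00175, 0.0190 and 0.00782, edgeR's exact test). EP300, with the most tags of the list, had 259 and 173 (adjusted p = 0.00631, Fisher's exact test) and was called lower with clean tags. NCOA3 had 173 and 226 (adjusted p = 0.00157, Fisher's exact test) and was called higher with TMM factors. Of the 13 coregulators with at least 20 tags, 12 had a negative fold change, beside 55.1% of all genes at that depth. With TMM factors 11 did, beside 5181 of the 10045 genes at that depth. The median log2 fold change of these 13 coregulators was -0.72 when scaled by gene tags. NCOA2 had 4 and 0 tags.

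The other nuclear receptors that pair with RXR gave no call among 11 genes, beside 21.7% of all genes. Only 6 of the 11 had at least 20 tags. At an unadjusted p under 0.05 in Fisher's exact test there were 3, beside 5800 of all 13137 genes. The edgeR exact test with an assumed coefficient of 0.1 also called 0, beside 1166 of the 13137 genes. Of the 11, 2 were at an unadjusted p under 0.05 in that test, beside 4310 of the 13137. NR1H2, the ubiquitous liver X receptor, had the most tags, 365 and 255 (log2 fold change -0.38, adjusted p = 0.00485, Fisher's exact test), and was called lower with clean tags (adjusted p = 0.000151). VDR, the vitamin D receptor, had 4 and 0 tags, and NR1H4 had 2 and 0.

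Genes known to respond to retinoic acid did not move in a single direction. Of 22 with values, 3 were called higher and 4 lower, or 31.8% in all, beside 21.7% of all genes. The median log2 fold change of the 15 with at least 20 tags was -0.14, against -0.10 over all genes at that depth. Beside RARB, the higher genes were MEIS2 and GPRC5A. MEIS2, a homeodomain protein that partners HOX proteins, rose from 20 tags to 108, a ratio of 5.94 (95% interval 3.66 to 10.1, adjusted p = 2.05e-16, Fisher's exact test). It was the 1 gene of the 71 still called with an assumed coefficient of variation of 0.2. GPRC5A, a membrane receptor first described as induced by retinoic acid in lung epithelium, rose from 295 to 587 tags (log2 fold change 1.13, adjusted p = 3.78e-28, Fisher's exact test).

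The lower response genes were RAI14, BHLHE40, TGM2 and TNFAIP2. RAI14, an actin-bound protein named for its induction by retinoic acid, fell from 220 tags to 72 (log2 fold change -1.47, adjusted p = 1.58e-14, Fisher's exact test). BHLHE40, a transcriptional repressor, fell from 502 to 226 (-1.01, adjusted p = 3.04e-18, Fisher's exact test). TGM2, tissue transglutaminase, had the most tags of the list and fell from 608 to 386 (-0.52, adjusted p = 2.71e-07, Fisher's exact test). TNFAIP2 fell from 490 to 313 (-0.51, adjusted p = 7.25e-06, Fisher's exact test). With an assumed coefficient of variation of 0.1, RAI14 and BHLHE40 stayed past the threshold (adjusted p = 4.84e-06 and 0.000277, edgeR's exact test). TGM2 and TNFAIP2 did not (adjusted p = 0.0818 and 0.101, edgeR's exact test). RARRES2 and ICAM1 had 0 tags in shRNA-Con, while the library labelled shRNA-SOX2 had 2 and 3.

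**Figure D5:**
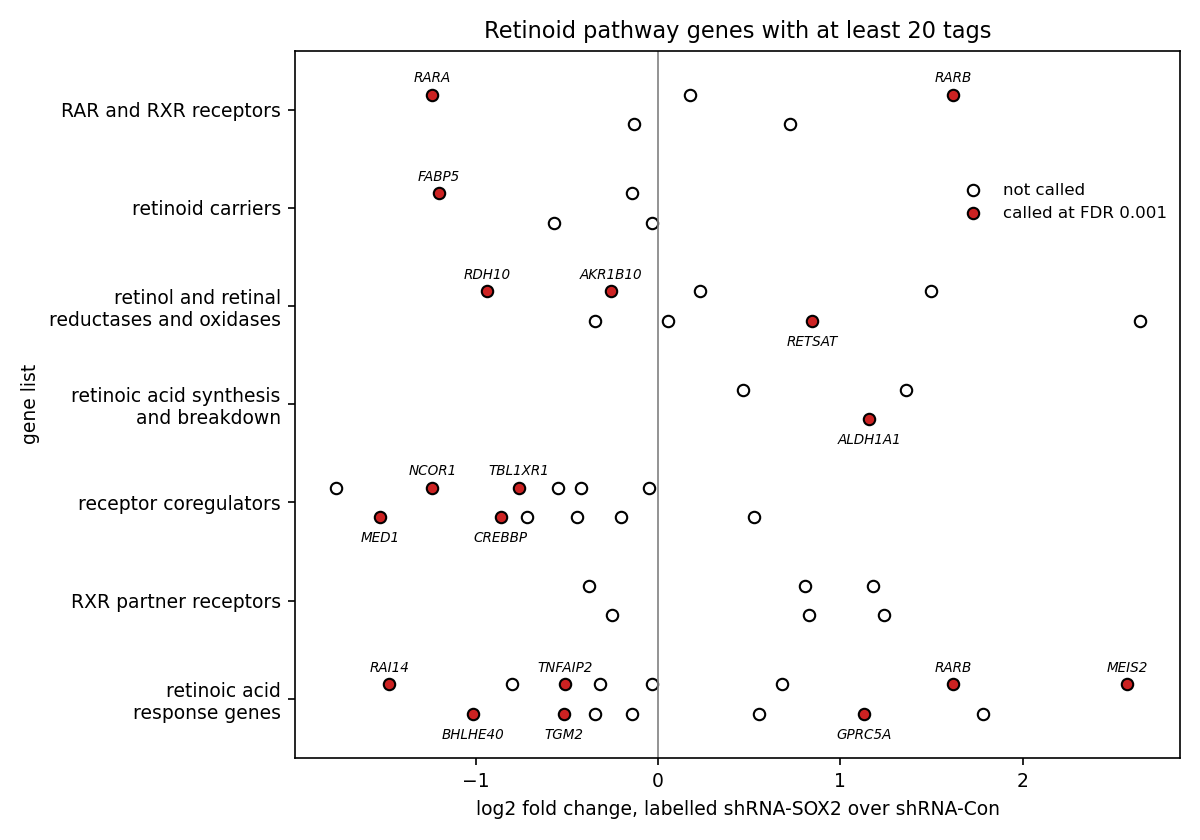
Log2 fold changes between the library labelled shRNA-SOX2 and shRNA-Con (positive where higher in the former) of the genes with at least 20 tags in each of the 7 retinoid lists, with genes called at FDR 0.001 in red and named. Genes whose results are not reported here are left out. Some genes, RARB among them, stand in 2 lists. The coregulators lie to the left of 0 apart from 1 gene, and the response genes lie on both sides.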

How the data were processed

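Oligo(dT)-selected mRNA of 2 libraries, 1 per condition, was profiled by digital gene expression at the Beijing Genomics Institute. The authors deposited raw tag counts per Entrez Gene ID. The authors' TPM divides a tag count by all clean tags and writes 0.01 TPM where a gene had 0 tags. It was used only to recover the clean tags (3516266 for shRNA-Con and 3456234 for the library labelled shRNA-SOX2). The submitters' processing notes name the build hg19, and the aligner and annotation are not given in the sources used here. The deposited log2 ratios, p-values and FDR of the authors' own comparison were not used.

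Counts were scaled by gene tags, a count below 3 tags was set to 3 for fold changes, and genes were compared by Fisher's exact test, two-sided, with p-values adjusted by Benjamini and Hochberg's method (Python 3.11.15, scipy 1.17.1). The ratio intervals are conditional 95% Clopper-Pearson intervals. The floor of 3 tags equals 1.30 CPM for shRNA-Con and 1.43 CPM for the library labelled shRNA-SOX2. Alternatives were TMM factors and edgeR's exact test with an assumed spread (edgeR 4.0.16, R 4.3.3), the median ratio (DESeq2 1.42.0), clean tags, a minimum of 10 tags, an FDR of 0.05, a log2 fold change of at least 1 and an added count of 0.5. List genes were matched through RefSeq symbols and synonyms, and rows with no symbol held 0.0535% and 0.0372% of the gene tags. Genes named are the 7 members, SOX2 and, from each list, those called, those with 0 tags in a library and that with the most tags, and further genes were named after their values were seen. Results of some single list genes are not reported here, though the list counts include them. Members and lists were chosen with earlier results of these data known. Fisher's exact test and the fold changes were tested on simulated tag counts that held counting error only. Other steps were not tested on simulated data.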

Additional observations from a re-analysis of the deposited data

How the results depend on the processing

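No paired analysis was possible because there is 1 library of each kind, which also means that no library could be left out. RARA and RARB kept their directions under all alternatives run, and both were called under clean tags, TMM factors and the median ratio, with a minimum of 10 tags, at an FDR of 0.05, with a log2 fold change of 1 or more demanded, and with an assumed coefficient of variation of 0.1. With an assumed coefficient of 0.2 the number of members called was 0, with 2 at an unadjusted p under 0.05, and with 0.4 it was 0, with 0 at an unadjusted p under 0.05. Of all 13137 genes, 2481 and 627 were at an unadjusted p under 0.05 with coefficients of 0.2 and 0.4. The share of RARA among RAR tags, 68.1% and 24.6%, does not change with scaling. Of 56 retested fold changes of members, 52 stayed on their side of the threshold and 4, those of RARA and RARB with assumed coefficients of 0.2 and 0.4, fell short of it. Adding 0.5 to each count, a change with no test, turned the direction of 0 of the 7 fold changes.

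Of the 71 pathway genes, 18 were called, against 9, 1 and 0 with assumed coefficients of 0.1, 0.2 and 0.4 (with 4 at an unadjusted p under 0.05 for the last), 34 at an FDR of 0.05, and 11 when the log2 fold change had to reach 1. Among all genes 2849 were called, against 1166, 113 and 0 with these coefficients (627 at an unadjusted p under 0.05 for the last), 4902 at an FDR of 0.05 and 1570 with that fold change demanded. Other scalings gave 2786 to 3018 genes. The losses follow from the assumed spread. Depth limits RARG and CRABP2, with 35 and 31 tags in all.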

Other observations

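HOX genes and the nuclear receptors whose symbols start with NR were counted by their symbols, a choice made after seeing the data. HOX genes are classical targets of retinoic acid in the embryo. Of 25 HOX genes with values, 3 were called higher and 0 lower in the library labelled shRNA-SOX2, beside 9.53% and 12.2% of all genes. HOXB6 rose from 17 tags to 94 (log2 fold change 2.61, adjusted p = 1.06e-14, Fisher's exact test), HOXB13 had 11 and 68 (2.77, adjusted p = 2.69e-11) and HOXC13 had 64 and 123 (1.08, adjusted p = 5.24e-06). In edgeR's exact test with an assumed coefficient of variation of 0.1, HOXC13 fell short of the threshold (adjusted p = 0.00348). Of the 18 with at least 20 tags, 27.8% had a negative fold change, beside 55.1% of all genes at that depth. HOXB9 went the other way, with 41 and 14 tags (log2 fold change -1.41, adjusted p = 0.00403, Fisher's exact test), and HOXA2 had 8 and 0.

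Of 18 nuclear receptor genes whose symbols start with NR, 2 were called higher and 2 lower, which is 22.2% and near the 21.7% of all genes. Some of the 18, NR1H2 and NR1H4 among them, also stand among the RXR partner receptors, none of which were called. NR2F6, an orphan receptor of the COUP-TF group, rose from 177 tags to 655 (log2 fold change 2.03, adjusted p = 1.05e-73, Fisher's exact test), and NR5A2 rose from 65 to 127 (1.10, adjusted p = 2.45e-06). NR2C2, an orphan receptor that binds direct repeats of the same hexamer as RAR, fell from 68 to 19 (-1.70, adjusted p = 6.07e-06, Fisher's exact test), and NR0B1 fell from 432 to 256 (-0.62, adjusted p = 3.80e-07). In edgeR's exact test with an assumed coefficient of variation of 0.1, NR5A2 and NR0B1 fell short of the threshold (adjusted p = 0.00262 and 0.0413).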
